A study of Mus musculus with 10 samples.

Results

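The basement membrane collagens described here are the 6 chains of collagen IV (Col4a1 to Col4a6), Col7a1, Col18a1 and the nidogens Nid1 and Nid2. They were chosen by gene name, and all 10 were found both among the 18502 genes of the Eed table and among the 18344 genes of the Ring1 table. RNA was sequenced from mouse back skin at postnatal day 71, from cells of the epidermis between hair follicles that were sorted as EpCAM-positive, Sca1-positive and high in α6-integrin. The study asked what the loss of either Polycomb complex does to these cells. Polycomb complexes keep developmental genes silent through marks on histones; Eed is a core part of complex PRC2, and the ligases Ring1 (Ring1a) and Rnf2 (Ring1b) attach ubiquitin within PRC1. The groups were Eed control (genotype given as control, n = 3), Eed knockout (Eed -/-, n = 3), Ring1 control (genotype given as control, n = 2) and Ring1a/b 2KO (Ring1a-/- Ring1b-/-, n = 2). The protocol describes 4OH-tamoxifen on shaved back skin, 100 µl of 20 mg/ml a day for 4 days from postnatal day 50. The Cre driver, the strain, the deleted exons and whether each library is a separate mouse are details not given in the sources used here; p-values therefore measure only the spread between these libraries.

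The Eed libraries held between 31699979 and 40701183 reads in protein-coding genes, and the Ring1 libraries between 6237389 and 25158144. The sorted cells carried the markers of basal keratinocytes: all 9 markers of the list were measured in both tables and none was at 0, with summed levels of 242988 or more normalised reads per library, against 968 to 1795 for 9 fibroblast markers and 581 to 759 for 9 measured endothelial markers in the Ring1 table. Markers of differentiated keratinocytes were also high, summing to 188311 to 389185 in Eed controls and 27421 to 31927 in Ring1 controls. The basal list includes the genes of the proteins used for sorting. The targeted genes did not check the labels. Eed stood at 1845, 1319 and 1706 in controls and 1412, 1143 and 1340 in knockouts, and Ring1 and Rnf2 overlapped between the Ring1 groups, but a count over a whole gene cannot show the loss of unnamed exons. Levels of the Y-linked genes Ddx3y and Eif2s3y differed between libraries. Their sum was 1665 and 630 in the Ring1 controls against 9.27 and 50.2 in the Ring1a/b 2KO, so in that table the Y-linked level and the genotype cannot be told apart. In the Eed table both groups held libraries of either kind: controls 1 and 2 and knockout 2 were between 4058 and 5804, and control 3 and knockouts 1 and 3 were between 14.4 and 26.8.

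Collagen IV is the network-forming collagen of basement membranes, the thin sheets on which epithelia sit. Its chains assemble inside the cell into trimers of fixed makeup: Col4a1 with Col4a2 in nearly all basement membranes, Col4a3 with Col4a4 and Col4a5 in kidney and a few other organs, and Col4a5 with Col4a6 in skin and smooth muscle. Nidogens link the collagen IV network to laminin. Col7a1 forms the anchoring fibrils that tie the epidermal basement membrane to the dermis, and its loss causes dystrophic epidermolysis bullosa, a blistering disease. Col18a1 is a heparan sulfate proteoglycan whose end fragment is endostatin. Keratinocytes and dermal fibroblasts are both known sources of these proteins in skin.

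The genes of the collagen IV chains lie in head-to-head pairs, each pair read outward from a shared stretch of DNA. In GENCODE M21 on mm10, Col4a1 (8:11198423-11312826, minus strand) and Col4a2 (8:11312805-11449287, plus strand) have starts 21 bases apart and overlap by 22 bases, where reads of the 2 genes cannot be told apart without strand. Col4a3 (1:82586921-82722059, plus strand) and Col4a4 (1:82448423-82586849, minus strand) start 72 bases apart. Col4a6 (X:141165403-141474076, minus strand) and Col4a5 (X:141475385-141689234, plus strand) start 1309 bases apart. Col7a1 lies at 9:108953586-108984875 and Nid1 at 13:13437551-13512269, both on the plus strand. Col18a1 lies at 10:77052178-77166548 on the minus strand and Nid2 at 14:19751265-19811787 on the plus strand.

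The promoter windows of the X-linked pair are shown because Col4a6 gave the clearest difference of the set and its neighbour Col4a5 a smaller one. Each runs from 250 bases before to 50 bases after the RefSeq start on GRCm38.p6, 5′ to 3′ on the gene's strand, chrX:141474027-141474326 for Col4a6 and chrX:141475169-141475468 for Col4a5. Capitals mark GGGCGG or CCAAT read on either strand.
Col4a6: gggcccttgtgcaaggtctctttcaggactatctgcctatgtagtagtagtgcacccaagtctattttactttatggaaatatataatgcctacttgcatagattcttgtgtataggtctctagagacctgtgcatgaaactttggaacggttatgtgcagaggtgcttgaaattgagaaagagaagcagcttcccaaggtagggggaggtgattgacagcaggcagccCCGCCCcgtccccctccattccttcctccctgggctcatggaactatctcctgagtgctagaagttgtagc
Col4a5: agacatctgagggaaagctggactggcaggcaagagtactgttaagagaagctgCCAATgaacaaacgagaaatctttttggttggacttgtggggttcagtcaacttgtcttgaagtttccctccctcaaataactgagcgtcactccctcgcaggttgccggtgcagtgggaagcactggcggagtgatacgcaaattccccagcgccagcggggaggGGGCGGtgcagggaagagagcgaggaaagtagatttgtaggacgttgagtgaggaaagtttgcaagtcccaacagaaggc
The windows do not overlap. Col4a6 holds 3 CpG and 1 GGGCGG (as its reverse complement), and Col4a5 holds 11 CpG, 1 GGGCGG and 1 CCAAT. Among all 32851 windows of the same length, counted on both strands, 35.7% hold GGGCGG, 37.4% hold CCAAT and 13.6% hold TATAAA, and the median window holds 7 CpG. Neither of these 2 windows holds TATAAA.

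The windows of Col4a1 (chr8:11312777-11313076) and Col4a2 (chr8:11312555-11312854) are shown because the pair's shared promoter can be read in them directly. Here capitals mark the 78 bases that both windows contain, on opposite strands.
Col4a1: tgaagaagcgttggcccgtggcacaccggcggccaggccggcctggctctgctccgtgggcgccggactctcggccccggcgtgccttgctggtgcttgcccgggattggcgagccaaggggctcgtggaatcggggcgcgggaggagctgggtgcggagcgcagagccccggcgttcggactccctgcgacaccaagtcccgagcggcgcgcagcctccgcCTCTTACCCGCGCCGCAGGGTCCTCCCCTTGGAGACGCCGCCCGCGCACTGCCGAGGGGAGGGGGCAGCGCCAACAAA
Col4a2: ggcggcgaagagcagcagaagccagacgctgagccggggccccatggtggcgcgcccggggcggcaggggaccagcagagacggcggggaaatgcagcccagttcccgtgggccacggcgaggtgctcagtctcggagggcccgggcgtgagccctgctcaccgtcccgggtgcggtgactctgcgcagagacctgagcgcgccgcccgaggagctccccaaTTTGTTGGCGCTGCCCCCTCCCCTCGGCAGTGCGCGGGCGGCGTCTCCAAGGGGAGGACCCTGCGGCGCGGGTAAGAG
They are rich in CpG, with 37 in the Col4a1 window and 33 in the Col4a2 window. Of the other members with a window, Nid1 held 20 CpG, Col18a1 16 and 6 in its 2 windows, Col4a4 14 and Col7a1 12. In all 8 of the 10 members had a window.

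Levels between genes were compared per length, as normalised read counts per kb of the longest coding transcript. Col7a1, the anchoring fibril collagen, stood highest in both sets of controls, at 1399 per kb on average in the Eed controls and 380 per kb in the Ring1 controls. In the Eed controls Col18a1 (536 per kb) and Col4a6 (476 per kb) came next with overlapping libraries, then Col4a5 (257 per kb), Col4a2 (135 per kb) and Col4a1 (91.2 per kb), of which the last 2 overlapped. The skin chains Col4a5 and Col4a6 were thus above the widespread chains Col4a1 and Col4a2 in each control library. Nid1 (8.19 per kb), Col4a3 (5.19 per kb) and Col4a4 (3.78 per kb) were far lower, and Col4a3 overlapped with both of the others. Nid2 was at 0.868 per kb, with 12, 0 and 1 reads in the 3 control libraries.

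**Figure D1:**
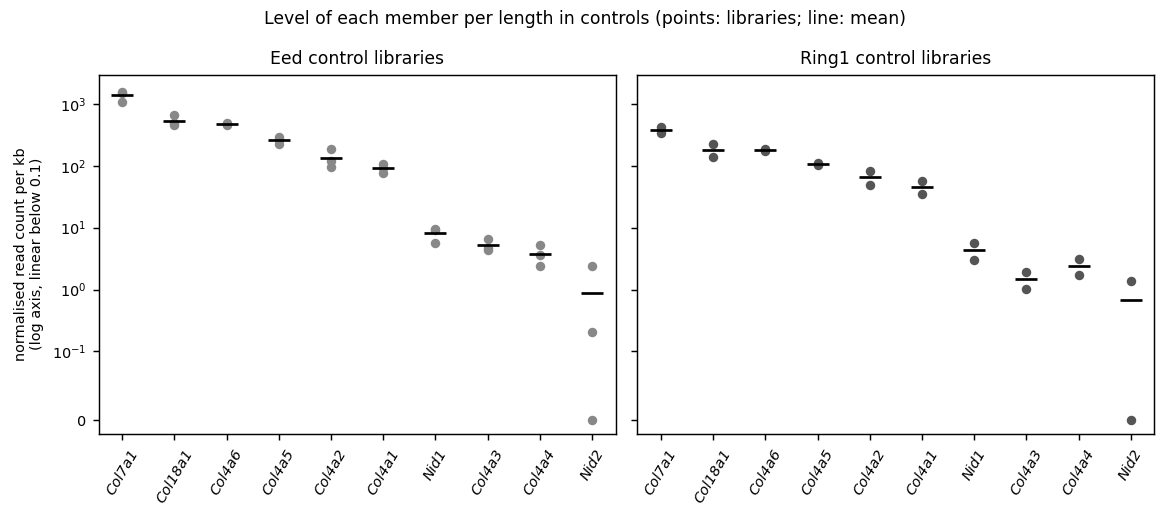
Normalised read count per kb of the longest coding transcript (log axis, linear below 0.1) for each member in the 3 Eed control and 2 Ring1 control libraries; points are libraries and lines are means. Col7a1 is highest in both panels, and Nid1, Col4a3, Col4a4 and Nid2 lie below 10 per kb in every control library.

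The order was nearly the same in the Ring1 controls, where Col4a6 (183.4 per kb) and Col18a1 (183.3 per kb) again overlapped. Col4a5 (106 per kb), Col4a2 (65.3 per kb) and Col4a1 (46.0 per kb) followed, and the last 2 of these overlapped. At the low end Nid1 (4.28 per kb), Col4a4 (2.41 per kb), Col4a3 (1.49 per kb) and Nid2 (0.682 per kb) each overlapped with the next. The tables were normalised separately, so levels are not compared between them.

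Loss of Eed left the basement membrane collagens without a detectable change at this size of experiment. Of 10 members, 9 passed the filter of a mean of at least 5 normalised reads and were tested with limma, a linear model fitted to log2(value + 1) of all genes. None passed an adjusted p of 0.05, and 0 of the 9 had an unadjusted p under it. edgeR, DESeq2 and the authors' deposited table also called 0 of them. The background was as empty: limma called 0 of 16122 genes (0%), with 4.73% at an unadjusted p under 0.05, while the authors' deposited table called 127 of 16684 (0.761%). The median log2 difference of the 9 members was -0.08, with 3 positive and 6 negative, beside 0.01 over all genes tested. It was 0.083 without knockout 2, -0.28 without knockout 3 and -0.15 without control 3.

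**Figure D2:**
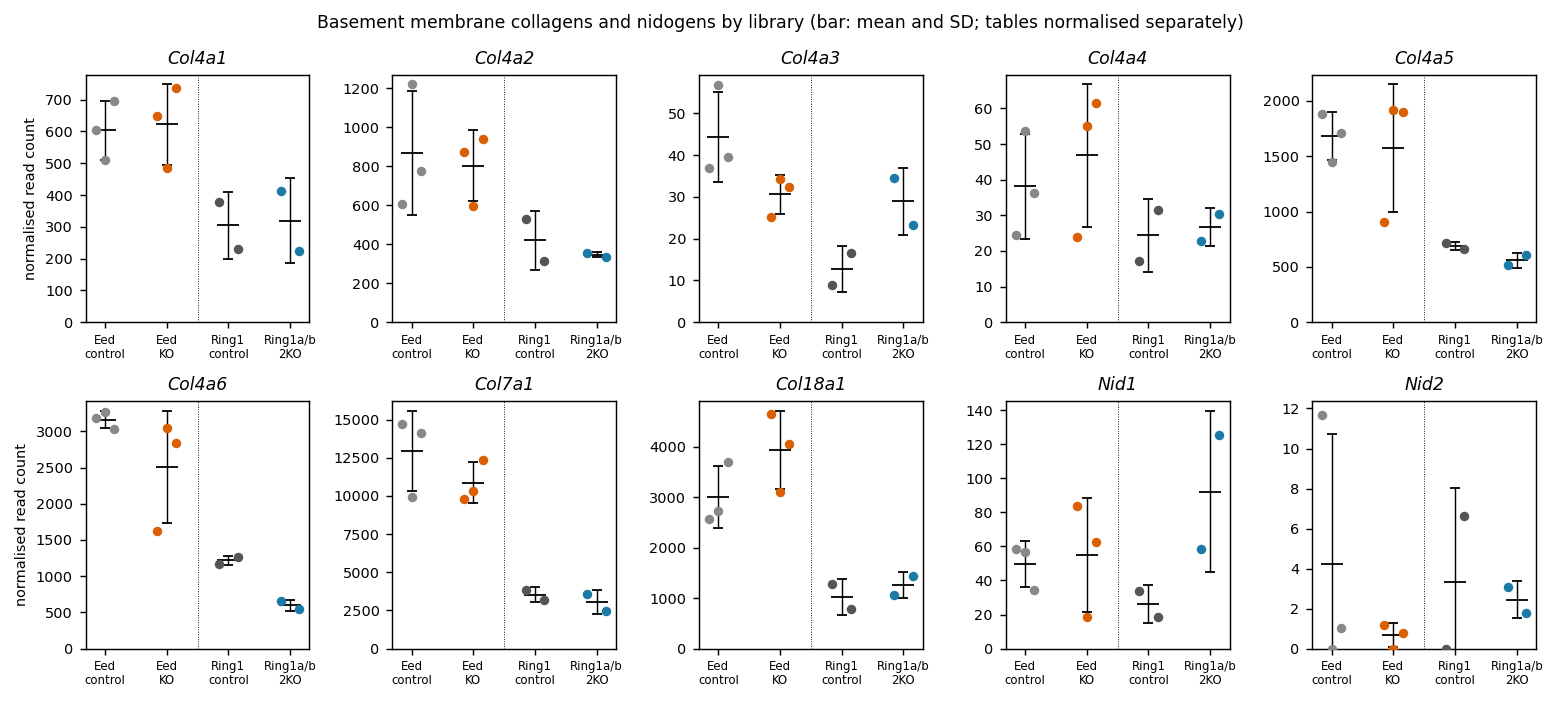
Normalised read count of each member in every library, with the mean and SD of each group; the dotted line separates the Eed and Ring1 tables, which were normalised separately. Col4a6 is lower in both Ring1a/b 2KO libraries (654 and 547) than in both Ring1 controls (1174 and 1265), and Eed knockout 1 is the low library for Col4a5 and Col4a6.

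Of the chains of the widespread trimer, Col4a1 had 604, 510 and 696 normalised reads in Eed controls, against 647, 485 and 737 in knockouts. Col4a2 had 607, 1224 and 776 in controls and 873, 597 and 942 in knockouts. Both genes overlapped between groups. The log2 difference was 0.04 for Col4a1 (95% interval -0.51 to 0.58) and -0.08 for Col4a2 (-0.75 to 0.59); both intervals hold changes in either direction.

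The skin chains were even across the Eed controls and spread by 1 library among the knockouts. Col4a6 had 3182, 3274 and 3033 in controls and 1631, 3053 and 2841 in knockouts. Col4a5 had 1884, 1450 and 1713 in controls and 909, 1918 and 1903 in knockouts. Knockout 1 was the low library for both genes. The log2 difference of Col4a6 was -0.39 (SE 0.24; limma adjusted p = 0.989), and -0.10 without knockout 1. That of Col4a5 was -0.17 (SE 0.29; limma adjusted p = 0.989), and 0.19 without knockout 1. Knockout 1 also stood apart in wound keratinocyte markers, which summed to 74485 there and to 13060 to 30095 in the other 5 libraries; their part in the result was not tested. The summed levels of all 11 marker lists overlapped between the Eed groups. The Y-linked level also splits the Eed libraries, and for Col4a6 the closest values of the 2 levels were 3053 against 3033. How many of all genes lie apart in that split was not counted. The 3 libraries with the high level stood at 3182 and 3274 (controls) and 3053 (knockout). The 3 with the low level stood at 3033 (control), 1631 and 2841 (knockouts). Only 1 knockout was at the high level and 1 control at the low level, too few to tell the Y-linked level and the genotype apart. Col4a5 overlapped between the 2 levels, and the part of the Y-linked level in these results was not tested.

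Col4a3, the kidney-type chain, was the member whose groups did not overlap in the Eed comparison. It had 37.0, 56.8 and 39.4 in controls and 25.2, 34.2 and 32.3 in knockouts, so each knockout lay below each control. Of all genes tested, 4.15% lay below their controls without overlap and 5.06% above, and 1 of the 9 members below is read against those shares. The log2 difference was -0.51 (SE 0.46; limma adjusted p = 0.989), and -0.32 without control 2. Its partner Col4a4 overlapped, with 24.3, 53.8 and 36.4 in controls and 24.0, 55.0 and 61.5 in knockouts.

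Col7a1 had 14743, 9931 and 14152 in Eed controls, against 9830, 10350 and 12378 in knockouts, and control 2 was as low as the knockouts. Its log2 difference was -0.24 (95% interval -0.73 to 0.25). Col18a1 had 2560, 2730 and 3702 in controls and 4638, 3110 and 4056 in knockouts, a log2 difference of 0.39 (95% interval -0.10 to 0.88; limma adjusted p = 0.989). The Col18a1 groups overlapped through control 3 and knockout 2. Among the nidogens, Nid1 had 58.4, 56.8 and 34.4 in controls and 83.9, 18.7 and 62.3 in knockouts, a spread wider than any difference between the groups. Nid2, with at most 12 reads in a library, was not tested.

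In the Ring1a/b 2KO the mean of the skin chain Col4a6 was 2.03-fold lower than in its controls, and this difference passed some tests and not others. The mean of Nid1 was 3.53-fold higher, which passed no test after adjustment. The 95% interval of every other tested member included 0. limma called 0 of the 9 tested members at an adjusted p of 0.05, edgeR called 0, and DESeq2 on the recovered reads called 1, Col4a6. The authors' deposited table also called 1, Col4a6. The background differed by tool: limma called 6 of 15310 genes (0.0392%), and 231 of 15498 were called in the authors' deposited table (1.49%), of which 48 were lower (0.31%). At an unadjusted limma p under 0.05 there were 2 of 9 members, Col4a6 and Nid1, beside 10.4% of all genes. The median log2 difference of the members was 0.05, with 5 positive and 4 negative, beside -0.00062 over all genes tested.

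Col4a6, the chain that forms the skin trimer with Col4a5, had 1174 and 1265 normalised reads in Ring1 controls, against 654 and 547 in the Ring1a/b 2KO. Both 2KO libraries lay below both controls, and the group means differed by 2.03-fold, 1219 ± 64.0 (SD, n = 2) against 600.4 ± 75.7 (SD, n = 2). The log2 difference was -1.03 (SE 0.21; 95% interval -1.49 to -0.56), with a limma p of 0.000739 and an adjusted p of 0.179. The authors' deposited table gave -1.02 with an adjusted p of 0.0144. DESeq2 gave an adjusted p of 0.0106 and edgeR 0.206. With DESeq2 the call was lost without control 1 (adjusted p = 0.827), without control 2 (0.826) or without 2KO 2 (0.348), and kept without 2KO 1 (0.0189); the log2 difference stayed between -1.15 and -0.89 in these 4 fits. Limma without 2KO 1, which leaves 1 library in that group, gave a log2 difference of -1.15.

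Other measures of this table are set beside Col4a6, and not all of them separated the groups. Markers of basal keratinocytes were mostly on the lower side in the 2KO, with 7 of 9 negative and a median log2 difference of -0.47. Their summed level overlapped, at 277197 to 351340 in controls and 242988 to 288848 in the 2KO. The share of reads from mitochondrial genes was 6.51% and 7.28% in controls and 8.16% and 12.7% in the 2KO. Markers of differentiated keratinocytes summed to 27421 to 31927 in controls and 46156 to 51902 in the 2KO. Most of that sum in the 2KO was Krt1 (13947 and 9866 in controls, 24228 and 35925 in the 2KO). Of the 6 differentiated markers 4 were negative, with a median log2 difference of -0.53. Wound keratinocyte markers summed to 2800 to 7075 and 8736 to 10846, and those of hair follicle stem cells to 2149 to 2559 and 2862 to 3815. Immune markers overlapped (268 to 279 and 133 to 289), and adipocyte markers were low (18.3 to 22.4 and 46.4 to 61.0). Their part in the result was not tested. Col4a6 lies on the X chromosome, and the Y-linked level separates the same libraries, as given above. In bulk RNA fewer cells of a type and less RNA per cell cannot be told apart.

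Col4a5, the X-linked neighbour and partner, was also lower in both 2KO libraries, by less. It had 716 and 665 in controls and 513 and 610 in the 2KO, a log2 difference of -0.30 (SE 0.22; limma adjusted p = 0.67). In all, 2 of the 9 members lay below their controls without overlap, Col4a5 and Col4a6, and 2 lay above, Col4a3 and Nid1. With 2 libraries a group this is common: 21.5% of all genes lay below and 21.4% above.

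**Figure D3:**
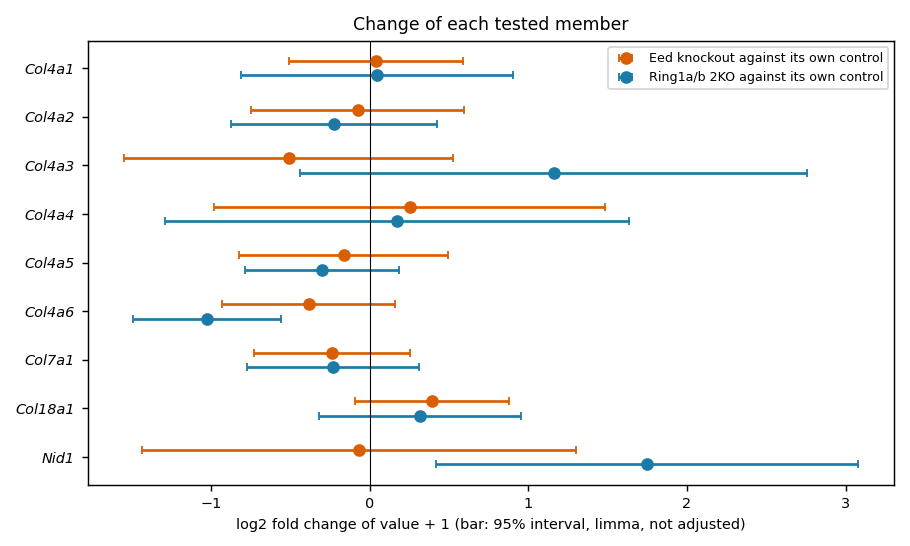
Log2 difference of value + 1 for the 9 tested members, Eed knockout and Ring1a/b 2KO each against its own controls; bars are 95% intervals from limma, not adjusted for the number of genes. The Ring1 intervals of Col4a6 (-1.49 to -0.56) and Nid1 (0.41 to 3.08) do not reach 0, and the other intervals do.

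Nid1, the linker between collagen IV and laminin, had 33.9 and 18.3 in Ring1 controls, against 58.7 and 125.5 in the 2KO. Both 2KO libraries lay above both controls, 2KO 2 the higher, and the means differed by 3.53-fold, 26.1 ± 11.0 (SD, n = 2) against 92.1 ± 47.2 (SD, n = 2). The values rest on 65, 11, 95 and 70 recovered reads. The log2 difference was 1.75 (SE 0.59; 95% interval 0.41 to 3.08), with a limma p of 0.0156 and an adjusted p of 0.379, and the authors' deposited table gave an adjusted p of 0.237. Leaving out 2KO 2 brought the log2 difference to 1.20, and leaving out 2KO 1 brought it to 2.29.

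Because fibroblasts and vessels are known to make nidogen, their markers are set beside Nid1. The summed fibroblast markers were 1350 and 1120 in controls and 1795 and 968 in the 2KO, and overlapped. Most of that sum was Thy1 (1263 and 985 in controls, 980 and 794 in the 2KO). Of the defining fibroblast genes, Col1a1 was at 11.5 and 24.9 in controls and 51.9 and 48.4 in the 2KO, Col3a1 at most at 5.21, and Dcn at 35.4 and 56.5 against 691 and 48.4. Of the 6 fibroblast markers tested, 5 were positive. The summed endothelial markers were 649 and 759 against 697 and 581, and the pericyte markers 924 and 990 against 960 and 914, so both overlapped. Most of the endothelial sum was Pecam1 (510 and 469 in controls, 483 and 387 in the 2KO). Of the 6 endothelial markers tested, 3 were positive and 3 negative, with a median log2 difference of 0.08. Tek was at 0.521 and 1.66 in controls and 22.3 and 5.38 in the 2KO. Tek, Tie1, Egfl7 and the untested Emcn lay above both controls in the 2KO, and Esam lay below. Over all genes tested, 21.4% lay above and 21.5% below without overlap. The endothelial gene Cdh5 was at most at 13.6. Melanocyte markers were higher in sum, 58.9 and 94.7 against 474 and 174. Schwann cell markers were lower in sum, 551 and 505 against 337 and 305. Most of the pericyte sum was Cspg4 and Notch3, and of the 6 pericyte and smooth muscle markers tested 5 were positive, with a median log2 difference of 0.51. Acta2 was at 3.65 and 0 in controls and 24.7 and 10.8 in the 2KO, and Myh11 at 1.56 and 1.66 against 1.85 and 16.1. Pdgfrb and Kcnj8 were at 0 in both controls and in 2KO 2, and no marker of any list was at 0 in all libraries. The part of these cells in the Nid1 level was not tested.

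Col4a3 had 8.86 and 16.6 in Ring1 controls, against 34.6 and 23.3 in the 2KO, from 17, 10, 56 and 13 recovered reads. Both 2KO libraries lay above both controls, and the log2 difference was 1.16 with a wide interval (-0.44 to 2.76; limma adjusted p = 0.609). Without control 1 it was 0.74. Col4a4, its partner, had 17.2 and 31.6 in controls and 22.9 and 30.5 in the 2KO, a full overlap. Col4a1 had 379 and 229 in controls and 413 and 224 in the 2KO. Col4a2 had 528 and 314 in controls and 358 and 337 in the 2KO. For these widespread chains the spread within the controls was larger than the difference between the groups, with log2 differences of 0.05 (95% interval -0.81 to 0.90) and -0.23 (-0.88 to 0.42).

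Col7a1 had 3867 and 3166 in Ring1 controls, against 3590 and 2476 in the 2KO, a log2 difference of -0.23 (95% interval -0.77 to 0.31). Col18a1 had 1277 and 774 in controls and 1070 and 1436 in the 2KO, a log2 difference of 0.32 (95% interval -0.32 to 0.95). Both overlapped between groups. Nid2 had 0 and 6.65 in controls and 3.09 and 1.79 in the 2KO, at most 5 reads in a library, and was not tested.

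The effects of the 2 knockouts were compared directly, as the Ring1a/b 2KO effect minus the Eed effect, which rest on separate controls. limma called 0 of 15096 genes (0%) and 0 of the 9 members; edgeR also called 0 members and 0 genes, and DESeq2 0 members and 1 gene. At an unadjusted p under 0.05 there was 1 member, Col4a3, beside 1.89% of all genes. Its difference was 1.67 on the log2 scale (95% interval 0.04 to 3.30; limma adjusted p = 0.99999), since its knockout libraries lay below their controls in the Eed table and above them in the Ring1 table. For Col4a6 the difference was -0.64 (95% interval -1.41 to 0.13; limma adjusted p = 0.99999), so the lower level in the Ring1a/b 2KO was not shown to differ from the Eed result. For Nid1 it was 1.81 (95% interval -0.22 to 3.84; limma adjusted p = 0.99999). For Col4a1, Col7a1 and Col18a1 the differences were 0.01, 0.01 and -0.07, with intervals reaching from -0.99 to 1.01, -0.76 to 0.77 and -0.90 to 0.75.

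Ratios within a library show how the balance of 2 partner chains stood without reference to any scaling. Col4a6 over Col4a5 was 1.69, 2.26 and 1.77 in Eed controls, against 1.79, 1.59 and 1.49 in Eed knockouts. Ring1 controls were at 1.64 and 1.90, and 2KO libraries at 1.27 and 0.897. The Ring1 groups did not overlap, and the exact two-sided permutation p of 0.333 is the smallest that 2 against 2 libraries allow (adjusted over the 6 ratio tests, 0.5). For the Eed groups the exact permutation p was 0.3 (adjusted 0.5).

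**Figure D4:**
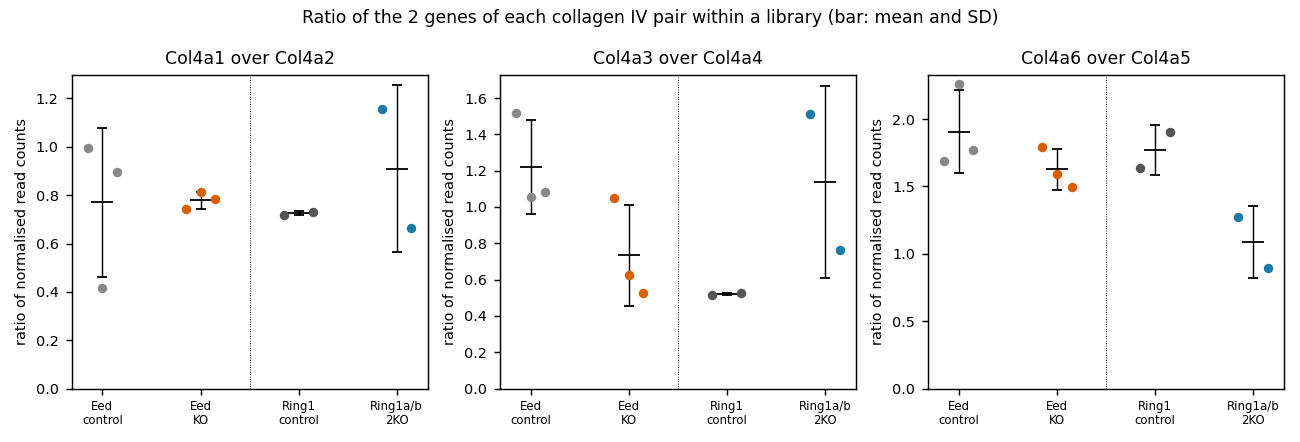
Ratio of the normalised read counts of the 2 genes of each head-to-head collagen IV pair in every library, with the mean and SD of each group. Col4a6 over Col4a5 is 1.64 and 1.90 in Ring1 controls and lower, at 1.27 and 0.897, in the Ring1a/b 2KO.

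Col4a3 over Col4a4 was 1.52, 1.06 and 1.08 in Eed controls, against 1.05, 0.623 and 0.526 in knockouts, where the exact permutation p of 0.1 is the smallest that 3 against 3 allow (adjusted 0.5). In the Ring1 table it went the other way, 0.515 and 0.526 in controls and 1.51 and 0.765 in the 2KO (exact permutation p = 0.333, adjusted 0.5). Neither pair of groups overlapped, on genes with 10 to 78 reads per library. Col4a1 over Col4a2 overlapped between the Eed groups, 0.995, 0.417 and 0.897 against 0.742, 0.813 and 0.782, and between the Ring1 groups, 0.719 and 0.730 against 1.16 and 0.665. The exact permutation p was 1 in both.

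Over all 10 libraries, each taken relative to its own controls' mean on the log2 scale, Pearson's r was 0.70 between Col4a5 and Col4a6 and 0.34 between Col4a1 and Col4a2. The most negative r of any member pair computed was -0.80, between Col4a6 and Nid1, whose Ring1 differences had opposite signs. These describe libraries that share depth, scaling and genotype. By the same measure, over 11290 genes whose mean reached 50 in each table, the genes most like Col4a1 were Plk2 (r = 0.94), Klf10 (0.94), Arhgef16 (0.93), Areg (0.92) and Acly (0.92). Those most like Col7a1 were BC024978 (0.98), Pik3r1 (0.97), Azin1 (0.97), Top1 (0.96) and Tmc7 (0.96). Both sets were picked as the highest r of so many genes over 10 libraries. The r that unrelated genes would reach was not computed.

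The enzymes that modify and fold collagen chains were taken as a list of 17, all tested. limma called 0 of them and edgeR 0 in either comparison. At an unadjusted p under 0.05 there were 2 after Eed loss and 5 after Ring1a/b loss (over all genes, 4.73% and 10.4%), and DESeq2 and the authors' deposited table each called 1 in each comparison. Plod2, the lysyl hydroxylase that prepares collagen ends for crosslinking, had 7.79, 10.1 and 90.0 in Eed controls, against 480, 91.3 and 646 in knockouts. In the Ring1 table it had 80.2 and 69.8 in controls and 235 and 475 in the 2KO. Each knockout library lay above each of its controls in both tables, in the Eed table by as little as 91.3 against 90.0. The limma log2 differences of Plod2 were 3.88 (SE 0.98; adjusted p = 0.639) and 2.14 (SE 0.40; adjusted p = 0.142), and the authors' deposited table gave adjusted p of 0.259 and 0.000346. P4ha3, a prolyl hydroxylase subunit, had log2 differences of 2.42 and 2.01. Its Eed value rests on knockout 1 (499, against at most 58.1 in the others and 8.12 to 21.4 in controls); the authors' deposited table called it there, with an adjusted p of 0.0184. The next were P3h1, a prolyl 3-hydroxylase, at 0.78 in the Eed comparison, and Serpinh1, the collagen chaperone HSP47, at 0.74 in the Ring1 comparison.

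Other proteins of the basement membrane were a list of 25. limma called 0 of 23 tested after Eed loss and 0 of 22 after Ring1a/b loss, edgeR 0 in both, and at an unadjusted p under 0.05 there were 3 and 8, beside the same 4.73% and 10.4% of all genes. In the 2KO 15 of the 22 were negative, with a median log2 difference of -0.29, against 49.97% positive and a median near 0 over all genes. Lama1, the laminin α1 chain, had 780 and 999 in Ring1 controls, against 367 and 235 in the 2KO, a log2 difference of -1.58 (SE 0.27; limma adjusted p = 0.131). DESeq2 and the authors' deposited table called it, the latter with an adjusted p of 0.00126. In the Eed table its groups overlapped. Lamb1, the laminin β1 chain, had 342 and 186 against 463 and 737 in the Ring1 table, and 359, 499 and 468 against 1107, 782 and 586 in the Eed table. Its knockouts lay above its controls in both, with log2 differences of 1.21 and 0.86 (limma adjusted p = 0.349 and 0.892). Col17a1, the transmembrane collagen of hemidesmosomes, was at -0.92 in the 2KO (limma adjusted p = 0.331). In the Eed comparison Lama2 was at 1.35 and Fras1 at 2.18 (limma adjusted p = 0.989 for both). Fras1 overlapped between groups, and its value rests on knockout 1 (704, against 101 and 63.1 in the others and 17.5 to 100.4 in controls).

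**Figure D5:**
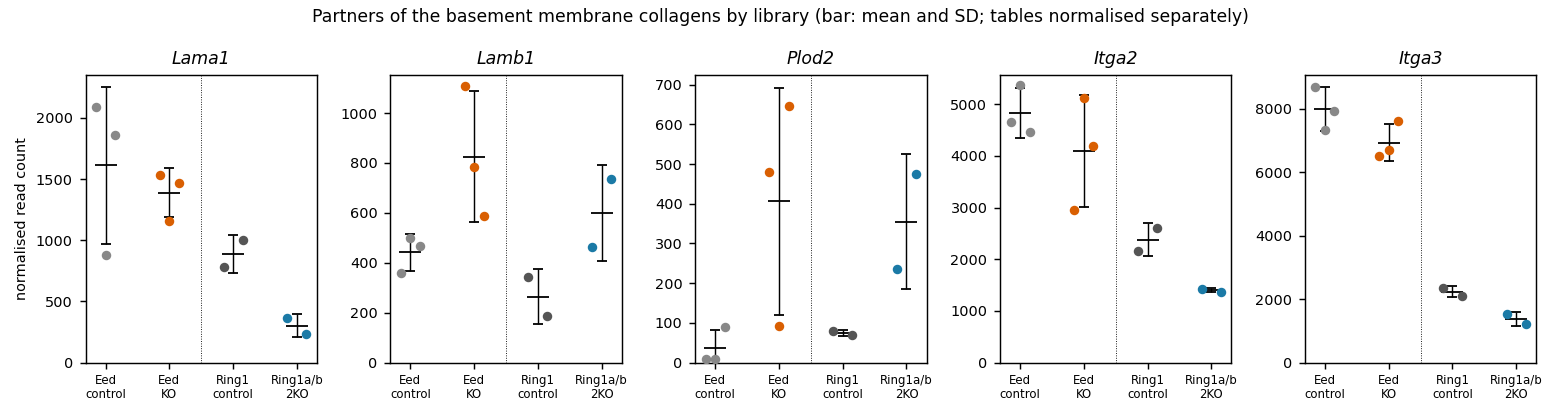
Normalised read counts of 2 laminin chains (Lama1, Lamb1), the lysyl hydroxylase Plod2 and the integrin subunits Itga2 and Itga3 in every library, with the mean and SD of each group; the tables were normalised separately. Lama1, Itga2 and Itga3 are lower in both Ring1a/b 2KO libraries than in both Ring1 controls, and Plod2 and Lamb1 are higher in each knockout library than in its controls in both tables.

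The receptors that bind collagen and basement membranes, a list of 13, were all tested. limma, edgeR, DESeq2 and the authors' deposited table called 0 in either comparison. At an unadjusted p under 0.05 there were 1 after Eed loss and 7 after Ring1a/b loss, again beside 4.73% and 10.4% of all genes. After Ring1a/b loss 9 of 13 were negative with a median log2 difference of -0.25. Itga2, a collagen-binding integrin subunit, had 2153 and 2604 in Ring1 controls, against 1427 and 1370 in the 2KO, a log2 difference of -0.76 (SE 0.20; limma adjusted p = 0.275). Adgrg6, an adhesion receptor that binds collagen IV, was at -0.87 and Itga3, a laminin-binding subunit, at -0.71 (limma adjusted p = 0.282 and 0.331). In the Eed comparison Itga1, the other main collagen-binding subunit, was at 0.84, Adgrg6 at -0.46 and Dag1, dystroglycan, at 0.38. The list shares members with the basal keratinocyte markers.

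Crosslinking and assembly proteins were a list of 12, with 9 tested in each comparison. limma, edgeR, DESeq2 and the authors' deposited table called 0 of them, and 0 had an unadjusted p under 0.05. The median log2 difference was 0.31 in the Eed knockout (8 of 9 positive) and 0.43 in the 2KO (6 of 9 positive). Over all genes tested the medians were 0.01 and -0.00062, with 51.2% and 49.97% positive. Every tested gene of the list overlapped between the Eed groups. Pxdn, the peroxidasin that forms the sulfilimine crosslinks of collagen IV, was at 0.81 and 0.52. The other smallest p-values were of Tgm2 (1.61) and Loxl3 (1.19) in the Eed comparison, and of Loxl2 (1.14) and Tll1 (0.72) in the Ring1 comparison. These are low genes. Tgm2 and Loxl3 were at most at 31.2 and 18.7 in the Eed libraries and overlapped between the groups. Loxl2 and Tll1 were at most at 59.2 and 62.8 in the Ring1 libraries. Proteases and inhibitors that act on basement membranes were a list of 16, with 15 and 10 tested. The 4 tools again called 0, and 1 in each comparison had an unadjusted p under 0.05. Timp2, an inhibitor of matrix metalloproteases, was at 0.68 and 0.59 in the 2 comparisons, and Timp3 at 0.50 and 0.55. Timp4 in the Eed comparison was at 1.66, on low values of 2.03 to 7.08 in controls and 8.30 to 28.8 in knockouts. The protease Mmp3 in the Ring1 comparison was at -1.34, with 32.3 and 64.8 in controls and 33.4 and 8.97 in the 2KO, which overlapped.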

How the data were processed

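Total RNA of sorted epidermal cells was amplified with the Ovation RNA-seq V2 kit and sequenced paired-end, per the labels' protocols. The submitters' processing notes name kallisto 0.42.5, DESeq2 3.11 and the build mm10; strand marking is not given in the sources used here. The authors deposited 1 table per knockout, limited to protein-coding genes. Per-library values are size-factor normalised counts, a signal unit in the deposited tables. The authors' own log2 fold changes and p-values, raw and adjusted, were deposited beside them. In every library 100% of values were whole multiples of 1 step (tolerance 1e-06), which recovered the read counts.

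limma 3.58.1 (R 4.3.3; trend, robust) modelled log2(value + 1) of genes whose mean was 5 or more, each knockout against its own controls; adjusted p-values are Benjamini-Hochberg over all genes tested, with a threshold of 0.05. A log2 difference on this scale understates the change of low genes. A value given as a fold is the ratio of group means. The difference between knockouts was fitted over all 10 libraries. The alternatives tried were quantile normalization, no filter, a filter at 50, pseudocounts of 0.5 and 5, a replicate block, edgeR 4.0.16 (quasi-likelihood) and DESeq2 1.42.0 on recovered reads, the authors' deposited values, 1 fit over all 10 libraries and each library left out. DESeq2 without each Ring1 library was chosen after seeing the data. The fits were also run on simulated data, with the same dispersion for all genes of a table and changes only in genes with a mean of at least 50. Those data do not cover changes in lower genes such as Col4a3.

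The members and lists were chosen with earlier results of these data known. Named were the members, Eed, Ring1 and Rnf2; of each pathway list the called genes or, with none called, the 3 with the smallest unadjusted p per comparison; summed marker levels; and the 5 genes most correlated with Col4a1 and with Col7a1, leaving out predicted genes (Gm, Rik). Single markers (Krt1, Thy1, Col1a1, Col3a1, Dcn, Cdh5, Pecam1, Tek, Tie1, Egfl7, Emcn, Esam, Cspg4, Notch3, Acta2, Myh11, Pdgfrb, Kcnj8) were named after their values were seen. Lengths and positions are from GENCODE M21; promoters are from RefSeq.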

Additional observations from a re-analysis of the deposited data

Results flagged for a closer look

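Col4a3 had a negative difference in the Eed comparison and a positive one in the Ring1 comparison, and neither passed (limma adjusted p = 0.989 and 0.609). Every Eed knockout library lay below the Eed control mean and every Ring1a/b 2KO library above the Ring1 control mean, and the Ring1a/b effect minus the Eed effect was 1.67 on the log2 scale. The limma test of that difference gave an unadjusted p of 0.0459 and an adjusted p of 0.99999, so it did not pass. Without each library in turn the difference between knockouts ranged from 1.25 to 2.09, the Eed value from -0.63 to -0.32 and the Ring1 value from 0.74 to 1.58. The gene had between 10 and 56 recovered reads per library.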

How the results depend on the processing

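The 9 tested members of the Eed comparison were called under no alternative, and 0 members were called for the difference between knockouts under any alternative or without any library. In the Ring1 comparison with every library kept, 1 member, Col4a6, was called by DESeq2 on recovered reads (log2 difference -1.01) and by the authors' deposited values (-1.02). Without 2KO 1, which leaves 1 library in that group, only its effect size is given here, a log2 difference of -1.15 by limma and by DESeq2. The limma log2 difference of Col4a6 lay between -1.15 and -0.90 without each library. Genes called in the Eed comparison numbered 0 by limma, 113 by DESeq2, 127 in the authors' deposited table, 10 in 1 fit over all libraries and 0 to 4 without each library. In the Ring1 comparison they numbered 6 by limma, 10 with no filter, 245 by DESeq2, 231 in the authors' deposited table, 0 in 1 fit over all libraries and 0 to 438 without each library. The cause was not tested. Whether the replicate numbers pair the samples is not stated. Same-numbered Eed libraries correlated at -0.20, 0.16 and 0.31, which did not show pairing; the Ring1 pairs correlated at 0.23 and the crossed pairs at -0.23, which is 1 value mirrored by the centring, and in both groups library 1 was the deeper, so pairing there is undecided. With the replicate block 1 gene was called in the Eed comparison and 36 in the Ring1 comparison, 0 members in either, and Col4a6 had an adjusted p of 0.108.

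The members' median in the Eed comparison ranged from -0.28 to 0.083 without each library. In the Ring1 comparison it was -0.23 with a mean of at least 50, which leaves out Col4a3 and Col4a4, and -0.32 to 0.14 without each library. Log2 differences near 0 changed sign. In the Eed comparison Col4a1 was -0.029 under quantile normalization, and Nid1 was 0.15 with edgeR, 0.14 with DESeq2 and 0.14 in the authors' deposited table. Without each library, Col4a1 ranged from -0.094 to 0.21, Col4a2 from -0.30 to 0.20, Col4a4 from -0.028 to 0.67, Col4a5 from -0.35 to 0.19 and Nid1 from -0.49 to 0.57. In the Ring1 comparison Col4a4 was -0.093 and Col7a1 0.00048 under quantile normalization; without each library, Col4a1 ranged from -0.39 to 0.49, Col4a2 from -0.60 to 0.14, Col4a4 from -0.25 to 0.59, Col7a1 from -0.50 to 0.037 and Col18a1 from -0.043 to 0.68. A group left with 1 library was assumed to vary like the others. Depth limits Nid1, Col4a3, Col4a4 and Nid2 most, the last too low to test.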
